A study of Mus musculus with 14 samples.

Results

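The prostaglandin genes described here are 10 genes, chosen by name, of 43629 gene identifiers in the count tables. They encode the cyclooxygenases (Ptgs1, Ptgs2), the prostaglandin E synthases (Ptges, Ptges2, Ptges3), the lipocalin-type prostaglandin D synthase (Ptgds) and the receptors of prostaglandin E2 (Ptger1 to Ptger4). All 10 matched 1 Ensembl identifier each. RNA was sequenced from 8 primary cultures of wild-type C57BL6 mouse hippocampus, prepared at birth or a day later and grown for 14 days in vitro. Of these, 4 received picrotoxin, a blocker of GABA-A receptors, at 100 µM for 15 h (group PTX) and 4 received 0.1% DMSO for 15 h (group CTRL). Positions of the chromatin reader L3mbtl1 came from 1 peak list for hippocampus of C57BL6/129 mice at postnatal day 7 to 8, deposited with 3 wild-type and 3 L3mbtl1-/- samples. The cultures are mixtures of neurons and glia, so a lower level can mean fewer cells of a type or less RNA per cell, and these cannot be told apart in bulk RNA.

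Prostaglandins are made from arachidonic acid, which phospholipases A2 and lipases release from membrane lipids. Cyclooxygenases turn it into prostaglandin H2, and terminal synthases turn that into prostaglandin E2, D2 and other prostanoids, which leave the cell and act on G protein-coupled receptors. In forebrain, Ptgs2 is known as a gene of excitatory neurons that is induced by synaptic activity and seizures, whereas Ptgs1 is known mainly from microglia. The receptors EP2 and EP4 (Ptger2, Ptger4) raise cyclic AMP, EP3 (Ptger3) mainly lowers it and EP1 (Ptger1) raises calcium.

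Libraries held 14524916 to 19498189 counts in genes. Levels are given as CPM, the reads of a gene scaled to a fixed total of effective library size, so that 1 read was worth 0.0499 to 0.0689 CPM. CPM is not corrected for transcript length, so levels are compared within a gene only. Neuron markers were abundant (summed level of 6 genes 4074 to 5302 CPM in CTRL and 6908 to 9760 CPM in PTX). Of these markers 3 rose (Map2, Snap25 and Nefl), 2 fell (Rbfox3 and Syt1) and Tubb3 did not pass the test. Nefl alone went from a mean of 319 CPM in CTRL to 3318 CPM in PTX. The higher sum in PTX therefore does not describe the markers as a class. Both libraries numbered 1 stood apart from the other 6 on the second principal component, with the lowest microglia markers (14 genes, 55.8 CPM in CTRL and 80.6 CPM in PTX against 147 to 313 CPM in the others) and the highest meningeal fibroblast markers (10 genes, 784 and 706 CPM against 188 to 279.7 CPM). Over all genes, 6248 of 15959 tested (39.2%) passed edgeR's quasi-likelihood test at an adjusted p under 0.05, 19.0% as rises and 20.1% as falls. Rises and falls named below all passed this threshold.

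Of the 10 prostaglandin genes, 9 passed the filter on low counts. Ptgs2, Ptger4 and Ptges3 rose, Ptgds and Ptger3 fell, and Ptgs1, Ptges, Ptges2 and Ptger1 did not pass the test. Ptger2 was too low to be tested. The 5 called of 9 are to be read against the 39.2% of all tested genes, and the 3 whose CTRL and PTX libraries did not overlap against 38.0%. The median log2 fold change of the 9 was 0.16, beside -0.03 over all tested genes. Ptger4 is among the 9 only through its PTX libraries, so its call and its place in these counts are a description.

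**Figure D1:**
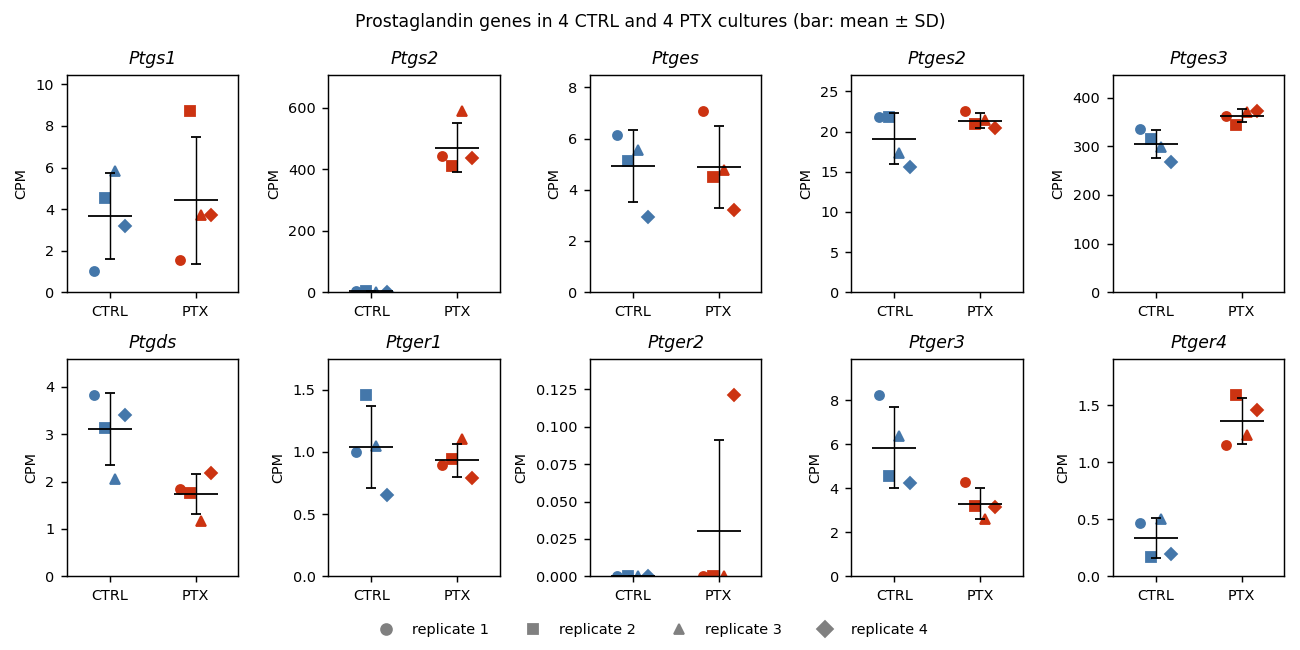
CPM (y axis, linear, from 0, a scale of its own in each panel) of the 10 prostaglandin genes in 4 CTRL (blue) and 4 PTX (red) libraries, with marker shapes for the replicate number and black bars for the mean ± SD. Ptgs2 went from at most 3.98 CPM in CTRL to at least 412 CPM in PTX, and the groups were also separate for Ptges3 and Ptger4.

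Ptgs2 (ENSMUSG00000032487, mm10 chromosome 1, 150100031 to 150108234), the inducible cyclooxygenase, had 3.71, 3.98, 1.90 and 1.63 CPM in the CTRL libraries numbered 1 to 4. In PTX it had 445, 412, 590.4 and 437 CPM. All PTX libraries were far above all CTRL libraries, and they differed among themselves by 1.43-fold, against 2.44-fold in CTRL. The rise was 167-fold (log2 fold change 7.38, SE 0.29, edgeR adjusted p = 4.16e-07, higher in PTX in 4 of 4 pairs). Its reads went from 197 over the CTRL libraries to 29713 over the PTX libraries, and made up 0.0415% to 0.0568% of gene counts in PTX. Leaving out any 1 library gave log2 fold changes of 7.21 to 7.60. Excitatory neuron markers, by contrast, summed to 440 to 572 CPM in CTRL and 232 to 262 CPM in PTX, with 5 of 6 fallen, and inhibitory neuron markers to 521 to 687 and 947 to 1080 CPM, with 4 of 7 risen and 1 fallen. The part of these shifts in the Ptgs2 level was not tested.

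The promoter of Ptgs2 is shown because no other gene of the set changed as much. The window runs from 250 bases before the RefSeq start to 30 bases after it (GRCm38.p6, the assembly of mm10, chr1:150099781-150100060, plus strand). Capitals mark matches to the motifs searched.
Ptgs2: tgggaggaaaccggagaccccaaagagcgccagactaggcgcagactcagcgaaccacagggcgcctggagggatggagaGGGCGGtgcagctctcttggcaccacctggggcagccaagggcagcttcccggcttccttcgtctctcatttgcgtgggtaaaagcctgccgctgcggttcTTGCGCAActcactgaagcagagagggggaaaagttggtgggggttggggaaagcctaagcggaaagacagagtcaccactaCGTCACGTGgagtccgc
The capitals are, in order, a GC box (GGGCGG), the C/EBP palindrome TTGCGCAA at 69 to 62 bases before the start, and a short CRE (TGACG, here on the minus strand) at bases 14 to 18 after the start, which overlaps an E-box (CACGTG) at bases 17 to 22. Among 32851 RefSeq windows of the same 280 bases, the short CRE was in 19.9%, the E-box in 6.79%, the GC box in 34.7% and the C/EBP palindrome in 0.18%, searched on both strands. The full CRE (TGACGTCA, in 1.74% of windows), AP-1 (TGA and TCA with any base between, 7.46%), the TATA box (letters TATAAA, 13.1%), CCAAT (36.1%), kappaB (4.22%) and CArG (1.56%) motifs had no match in this window. These matches describe letters and show no binding. Their places are counted from the RefSeq start, which was not checked against a mapped start, and bases outside the window were not searched. Of the 9 prostaglandin genes with a window (Ptger1 had none), only Ptgds held a full CRE or AP-1 match.

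A pair of long noncoding RNA genes named after Ptgs2 lie near it on chromosome 1, and were chosen after their counts were seen. Their values are a description. Ptgs2os2 (150159043 to 150164948), 50.8 kb beyond Ptgs2, had 0 counts in all CTRL libraries and 38, 21, 29 and 36 counts in PTX, at least 45.6-fold higher at a floor of 3 counts over the CTRL group. It passed the filter on low counts through PTX only, so no test is given. Ptgs2os (150074873 to 150099874), which ends 156 bp from Ptgs2, had 4 counts over the CTRL and 46 over the PTX libraries and was too low to be tested. Pla2g4a (149829618 to 149961290, 138.7 kb from Ptgs2) encodes the cytosolic phospholipase A2 that supplies arachidonic acid to cyclooxygenases. Its level was 4.30, 5.33, 4.09 and 3.07 CPM in CTRL and 23.5, 18.2, 31.2 and 17.7 CPM in PTX. It rose 5.37-fold (log2 fold change 2.42, SE 0.23, edgeR adjusted p = 2.76e-05). The strand used in counting is not given in the sources used here, so reads of overlapping genes on opposite strands cannot be told apart.

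The genes most like Ptgs2 across the 8 libraries, by the mean absolute difference of centred log2 CPM, were Crct1 (0.24), Gm18445 (0.35) and Ifi214 (0.45). They had 3, 3 and 2 counts over the CTRL libraries, so the prior count of 2 shapes their profiles at that end.

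Ptgs1 (ENSMUSG00000047250, chromosome 2, 36216742 to 36258593), the constitutive cyclooxygenase, did not pass the test. Its level was 1.00, 4.54, 5.84 and 3.20 CPM in CTRL and 1.53, 8.73, 3.72 and 3.70 CPM in PTX. The groups overlapped, and the spread within each (5.83-fold in CTRL, 5.7-fold in PTX) was larger than the difference (log2 fold change 0.27, 95% interval -0.97 to 1.52, edgeR adjusted p = 0.74). Without the PTX library numbered 2 the log2 fold change was -0.31. The microglia markers varied in the same libraries, with sums of 55.8, 173, 183 and 167 CPM in CTRL and 80.6, 313, 147 and 212 CPM in PTX. Of the 14 markers, 13 were tested, Cd68 rose and 0 fell. With the replicate number as a block P2ry12 and Csf1r rose too (edgeR adjusted p = 0.0429 and 0.0443). The lowest Ptgs1 levels were in the libraries with the lowest microglia sums and the highest was in the library with the highest sum, and the part of these cells in the Ptgs1 level was not tested.

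**Figure D2:**
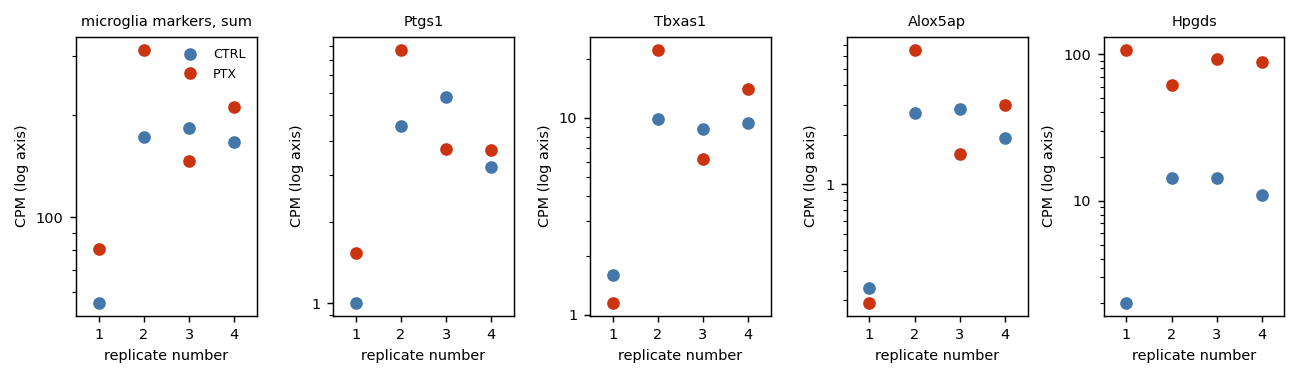
CPM on a log axis (y) of the summed 14 microglia markers and of Ptgs1, Tbxas1, Alox5ap and Hpgds, by replicate number (x), in CTRL (blue) and PTX (red). The libraries numbered 1 are lowest for the marker sum, Ptgs1, Tbxas1 and Alox5ap in both groups, whereas Hpgds is highest of all in the PTX library numbered 1 (108 CPM).

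Of the 3 prostaglandin E synthase genes only Ptges3 rose, and by little. Ptges3 (ENSMUSG00000071072, chromosome 10, 128058982 to 128077254) encodes cytosolic prostaglandin E synthase, also known as the Hsp90 co-chaperone p23. It had 336, 316, 298 and 268 CPM in CTRL and 362, 344, 371 and 373 CPM in PTX. The groups did not overlap, and the rise was 1.19-fold (log2 fold change 0.25, SE 0.09, edgeR adjusted p = 0.0404). The call was lost without CTRL replicate 2, 3 or 4 (edgeR adjusted p = 0.0596, 0.108 and 0.0952) and without the filter on low counts (0.0977), and across its alternatives p lay between 0.00594 and 0.108. Ptges2 (ENSMUSG00000026820, chromosome 2, 32395890 to 32402740), the membrane-associated synthase 2, had 15.5 to 21.8 CPM in CTRL and 20.4 to 22.6 CPM in PTX (95% interval of the log2 fold change -0.12 to 0.43, edgeR adjusted p = 0.35). Ptges (ENSMUSG00000050737, chromosome 2, 30889471 to 30931020) encodes the microsomal synthase that often works with the inducible cyclooxygenase in inflamed tissue. Its level was 6.13, 5.11, 5.54 and 2.94 CPM in CTRL and 7.08, 4.48, 4.76 and 3.22 CPM in PTX. The groups overlapped throughout (log2 fold change -0.02, 95% interval -0.65 to 0.61, edgeR adjusted p = 0.969). The Ptges span overlaps the gene models Gm52550 and Gm13400.

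Ptgds (ENSMUSG00000015090, chromosome 2, 25466709 to 25470110) encodes lipocalin-type prostaglandin D synthase, known in brain from meninges, choroid plexus and oligodendrocytes. It had 3.83, 3.14, 2.05 and 3.40 CPM in CTRL and 1.85, 1.77, 1.17 and 2.18 CPM in PTX. The PTX level was lower in 4 of 4 pairs, with 1 overlap between the groups, since the lowest CTRL library lay under the highest PTX library. Ptgds fell 1.77-fold (edgeR adjusted p = 0.0323, log2 fold change -0.82 with SE 0.26). The call was lost without CTRL replicate 1, 2 or 4 (edgeR adjusted p = 0.104, 0.0624 and 0.073), without PTX replicate 1, 2 or 3 (0.06, 0.0582 and 0.111) and without both libraries numbered 1 (0.112), and across its alternatives p lay between 0.0024 and 0.112. Choroid plexus epithelium markers (7 genes) summed to 656, 28.9, 26.1 and 501 CPM in CTRL and 566, 29.2, 21.7 and 431 CPM in PTX, and 0 of the 5 tested were called. Ttr, the leading marker, made up most of the sum in the libraries numbered 1 and 4 (403 to 636 CPM) but not in those numbered 2 and 3 (4.96 to 10.2 CPM). The libraries numbered 1 and 4 were high in this sum in both groups, and in both groups they also had the highest Ptgds levels. The order rests on few reads. In CTRL, number 4 had 3.40 CPM against 3.14 in number 2 (52 and 56 reads). In PTX, number 1 had 1.85 CPM against 1.77 in number 2 (29 and 30 reads). The Ptgds level differed between CTRL libraries by 1.87-fold. Oligodendrocyte markers (7 genes) summed to 41.2 to 69.7 CPM in CTRL and 54.0 to 81.7 CPM in PTX, with 0 of 5 tested called. Meningeal fibroblast markers summed to 784, 189, 242 and 279.7 CPM in CTRL and 706, 188, 250.3 and 272 CPM in PTX, with Fn1 risen and 0 fallen of 10. With the replicate number as a block, markers of all 3 lists moved. The meningeal markers Dcn, Igf2, Ogn and Slc6a13 fell (edgeR adjusted p = 0.00478, 0.00342, 1.53e-05 and 9.75e-05), and so did Ttr (log2 fold change -0.28, edgeR adjusted p = 0.0323). The oligodendrocyte markers Mbp, Cnp and Cldn11 rose with the block (edgeR adjusted p = 0.0322, 0.000473 and 0.0408). In these 3 lists no marker was at 0 in either group, and their part in the Ptgds level was not tested. By the same measure of likeness, the genes closest to Ptgds were Mroh7 (0.13), Fam160a1 (0.14) and Ybx2 (0.14), which fell 1.91-fold, 1.86-fold and 1.92-fold.

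Among the receptors of prostaglandin E2, Ptger4 rose and Ptger3 fell. Ptger4 (ENSMUSG00000039942, chromosome 15, 5233399 to 5244187) encodes EP4. It had 0.472, 0.168, 0.499 and 0.196 CPM in CTRL (24 reads in all) and 1.15, 1.59, 1.24 and 1.46 CPM in PTX (87 reads). All PTX libraries were above all CTRL libraries. The rise was 3.95-fold (log2 fold change 1.98, SE 0.37), with log2 fold changes of 1.75 to 2.28 over the 13 alternatives. Because all CTRL libraries lay under the filter level of 0.595 CPM, the gene entered the test through its PTX libraries only. Its values are therefore a description, and no p-value is given.

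Ptger3 (ENSMUSG00000040016, chromosome 3, 157566821 to 157644758) encodes EP3. It had 8.26, 4.54, 6.39 and 4.25 CPM in CTRL and 4.28, 3.18, 2.62 and 3.16 CPM in PTX. It was lower in PTX in 4 of 4 pairs, and only the highest PTX library reached the lowest CTRL library. Ptger3 fell 1.77-fold (edgeR adjusted p = 0.0258, log2 fold change -0.82 with SE 0.25). The call was lost without CTRL replicate 1 or 3 (edgeR adjusted p = 0.0943 and 0.0672) and without PTX replicate 2, 3 or 4 (0.0578, 0.0993 and 0.0805), and across its alternatives p lay between 0.00139 and 0.0993.

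Ptger1 (ENSMUSG00000019464, chromosome 8, 83666644 to 83672756) encodes EP1 and had 1.00, 1.46, 1.05 and 0.653 CPM in CTRL and 0.894, 0.944, 1.10 and 0.789 CPM in PTX (95% interval of the log2 fold change -0.82 to 0.48, edgeR adjusted p = 0.691). Its level is uncertain, for the reason given above on overlapping genes. Ptger2 (ENSMUSG00000037759, chromosome 14, 44988111 to 45003820), encoding EP2, had 0 counts in all CTRL libraries and 2 counts over the PTX libraries, all in replicate 4. Both sums lie under a floor of 3 counts, so no fold is given and a difference was not detectable at this depth.

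Around these genes, 46 others of the arachidonate pathway were listed by role. Of the 28 that passed the filter, 7 rose and 8 fell. The share called, 15 of 28, is again to be read against 39.2% of all tested genes, and their median log2 fold change was 0.02. With the replicate number as a block, 9 fell, with Pla2g6 the 1 added (edgeR adjusted p = 0.042 against 0.0754), while 55.3% of all tested genes were called. Their estimates beside those of the prostaglandin genes are in the plot of log2 fold changes by role.

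**Figure D3:**
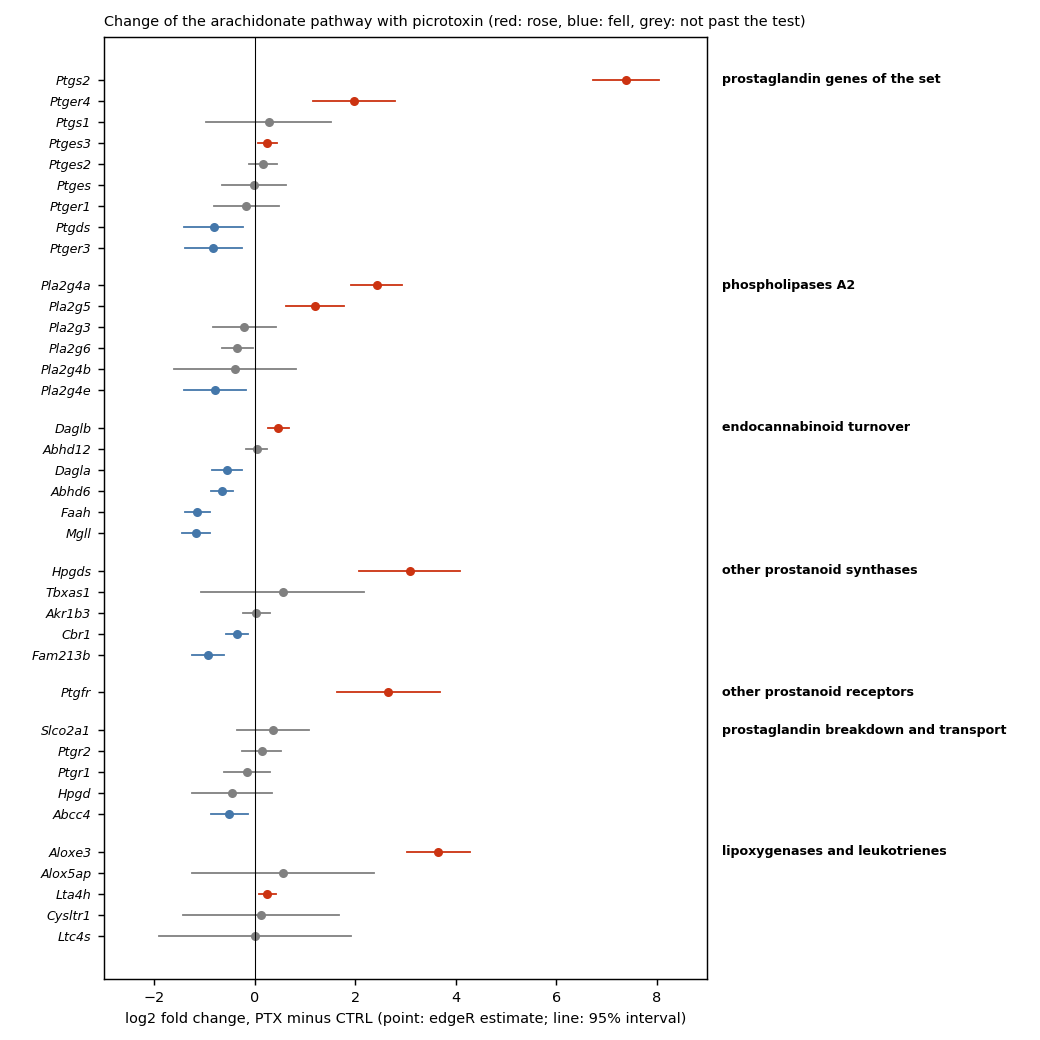
Log2 fold change PTX minus CTRL (x axis) of the 9 tested prostaglandin genes and 28 tested genes of the wider pathway, grouped by role, with the edgeR estimate as a point and its 95% interval as a line. Ptgs2 lies at 7.38, and Aloxe3, Hpgds, Ptgfr and Pla2g4a are the next highest at 3.65, 3.08, 2.65 and 2.42, while Mgll and Faah are lowest at -1.17 and -1.14.

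Phospholipases A2, which free arachidonic acid, moved both ways. Of 11 genes, 6 were tested, of which Pla2g4a and Pla2g5 rose and Pla2g4e fell. Pla2g5, a secreted enzyme, went from 2.78 ± 0.898 to 6.44 ± 1.32 CPM (SD, n = 4), a 2.3-fold rise (edgeR adjusted p = 0.00431). Pla2g4e went from 2.44 ± 0.605 to 1.40 ± 0.396 CPM (SD, n = 4; adjusted p = 0.0458 by edgeR). That call was lost in 10 of 13 alternatives, with edgeR adjusted p of 0.0105 to 0.157 over all of them. They were both fits with DESeq2 size factors, the fit without a filter, 7 fits with fewer libraries (any 1 of CTRL replicates 1, 2 and 3 or of PTX replicates 2, 3 and 4 left out, or both libraries numbered 1).

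Of the 6 genes of endocannabinoid turnover, all tested, 4 fell (Mgll, Faah, Abhd6 and Dagla) and Daglb rose, beside 20.1% fallen and 19.0% risen over all tested genes. In brain, monoacylglycerol lipase (Mgll) breaks 2-arachidonoylglycerol down to arachidonic acid that cyclooxygenases can use. Mgll had 53.2, 52.3, 59.9 and 43.4 CPM in CTRL and 26.8, 24.2, 22.1 and 19.7 CPM in PTX, a 2.25-fold fall with no overlap (edgeR adjusted p = 6.14e-05, log2 fold change -1.17 with SE 0.12). Faah, which breaks down anandamide, fell 2.21-fold (48.6 ± 5.42 to 22.0 ± 2.49 CPM, SD, n = 4; adjusted p = 3.88e-05 by edgeR). The lipase gene Abhd6 fell 1.56-fold. The 2 diacylglycerol lipase genes, whose products make 2-arachidonoylglycerol, moved in opposite directions, with Dagla 1.47-fold lower (edgeR adjusted p = 0.00775) and Daglb 1.38-fold higher (0.00309). Of the 6 genes in this group Abhd12 alone was not called (edgeR adjusted p = 0.779). Astrocyte markers (8 genes) summed to 6216 to 8378 CPM in CTRL and 4526 to 6255 CPM in PTX, with 4 fallen (Gfap, Aqp4, Slc1a2 and Aldoc) and 0 risen (6 fallen with the replicate block, with Gja1 and Sox9 added), and their part in the levels of these genes was not tested.

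Of 6 other prostanoid synthase genes, 5 were tested, Hpgds rose, and Fam213b and Cbr1 fell. Hpgds, the haematopoietic prostaglandin D synthase, had 2.00, 14.2, 14.2 and 11.0 CPM in CTRL and 108, 61.6, 92.9 and 88.7 CPM in PTX. All PTX libraries were above all CTRL libraries, and the rise was 8.45-fold (log2 fold change 3.08, SE 0.45, edgeR adjusted p = 0.000447). Without both libraries numbered 1 the log2 fold change was 2.66 (SE 0.18, edgeR adjusted p = 1e-05). Hpgds is known in brain from microglia, and in CTRL it was lowest in the library with the lowest microglia sum. In PTX it was highest in the library with the lowest sum, and the part of these cells was not tested. Thus Hpgds rose while Ptgds, the gene for the other prostaglandin D synthase, fell. The call of Hpgds was kept in 13 of 13 alternatives, and that of Ptgds was lost in 7 of 13. Fam213b, which encodes a prostamide and prostaglandin F synthase, went from 15.5 ± 0.964 to 8.13 ± 1.54 CPM (SD, n = 4; adjusted p = 0.000701 by edgeR). Cbr1, a carbonyl reductase gene, fell 1.27-fold (edgeR adjusted p = 0.0163), a call lost when CTRL replicate 3 (0.0521) or one of PTX replicates 1, 3 and 4 was left out (0.0545, 0.0834 and 0.0544), over a range of 0.00241 to 0.0834. Tbxas1, the thromboxane synthase gene, had 1.59, 9.93, 8.84 and 9.41 CPM in CTRL and 1.15, 22.3, 6.20 and 14.0 CPM in PTX (edgeR adjusted p = 0.592), again lowest in both libraries numbered 1.

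Of 5 receptor genes for other prostanoids only Ptgfr, the receptor of prostaglandin F2 alpha, passed the filter. It had 1.42, 1.91, 1.45 and 2.22 CPM in CTRL and 3.38, 10.4, 10.2 and 20.0 CPM in PTX. The groups did not overlap although PTX libraries differed by 5.9-fold, and the rise was 6.29-fold (log2 fold change 2.65, SE 0.46, edgeR adjusted p = 0.0013). Ptgdr, Ptgdr2, Ptgir and Tbxa2r had at most 10 counts over a group. Of 5 genes of prostaglandin breakdown and transport, 0 rose and Abcc4, an exporter of prostaglandins, fell from 17.2 ± 2.73 to 12.1 ± 2.25 CPM (SD, n = 4; adjusted p = 0.0329 by edgeR). The Abcc4 call was lost when CTRL replicate 3 or 4 was left out (edgeR adjusted p = 0.094 and 0.0886) or any 1 PTX library (0.0511 to 0.11), over a range of 0.000504 to 0.11. Hpgd, the enzyme that inactivates prostaglandins, had 1.16 ± 0.28 and 0.84 ± 0.401 CPM (SD, n = 4; adjusted p = 0.36 by edgeR), and Slco2a1, their uptake carrier, 0.815 ± 0.253 and 1.05 ± 0.282 CPM (edgeR adjusted p = 0.419).

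On the lipoxygenase side, 5 of 13 genes were tested, of which Aloxe3 and Lta4h rose. Aloxe3, an epidermal lipoxygenase gene that acts as a hydroperoxide isomerase, had 2.42, 3.31, 2.30 and 2.35 CPM in CTRL and 46.7, 18.3, 33.4 and 32.0 CPM in PTX. It rose 12.5-fold (log2 fold change 3.65, SE 0.28, edgeR adjusted p = 9.26e-06) and kept its call in 13 of 13 alternatives. Lta4h, leukotriene A4 hydrolase, rose 1.19-fold (edgeR adjusted p = 0.0243), a call lost without CTRL replicate 2 or 4 (0.0737 and 0.0504) and without the filter (0.0909), over a range of 0.00394 to 0.0909. Alox5ap, which encodes the activating protein of 5-lipoxygenase, had 0.236, 2.69, 2.85 and 1.89 CPM in CTRL and 0.191, 6.55, 1.52 and 3.03 CPM in PTX (edgeR adjusted p = 0.633). Alox5 itself had 11 counts in each group and was not tested.

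L3mbtl1 peaks lay within 2000 bp of a gene end at 3 of the 10 prostaglandin genes, Ptges2, Ptges3 and Ptger4. All 3 were among the 9 prostaglandin genes that were tested. The share over 14738 tested genes with a position was 26.0%. The list of 4677 peaks comes from tissue and the RNA from cultures, so peaks and levels belong to different samples, and wild-type and L3mbtl1-/- signal were not compared here. At Ptges2, a peak of 210 bp with the authors' score 18.0 (rank 354 of 4677) covered the start, from 5 bases before to 204 bases past it, and a second peak of 180 bp with score 8.17 (rank 4623) lay 265 to 86 bases before it. At Ptges3, a peak of 383 bp (score 10.7) ran from 53 bases before the start to 329 bases past it and another of 974 bp (score 11.5) from 463 to 1436 bases past it. At Ptger4, 1 peak of 1386 bp (score 10.7, rank 2398) ran from 17 bases before the start to 1368 bases past it. None of these peaks lay within 2000 bp of the end of another gene. Of the 3 genes, Ptges3 rose, a call lost in 4 of 13 alternatives, and Ptges2 did not pass the test. Ptger4 was higher in PTX, but it entered the test through its PTX libraries only, so its change is a description.

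**Figure D4:**
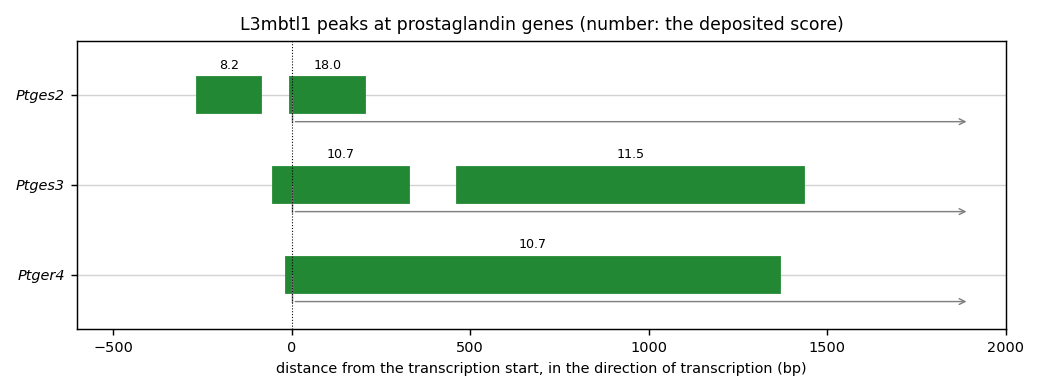
L3mbtl1 peaks (green boxes, to scale, with the deposited score above each) at Ptges2, Ptges3 and Ptger4 against the distance from the RefSeq transcription start in the direction of transcription (x axis, bp), with an arrow from each start. A peak covers the start of each gene, and the Ptger4 peak is the widest at 1386 bp.

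The promoters under or next to these peaks are shown to set them against that of Ptgs2, which had no peak within 285.05 kb. The windows are again 250 bases before to 30 bases after the RefSeq start (GRCm38.p6): Ptger4 chr15:5244158-5244437 (minus strand), Ptges2 chr2:32395640-32395919 (plus strand) and Ptges3 chr10:128058732-128059011 (plus strand). Capitals mark the same motifs.
Ptger4: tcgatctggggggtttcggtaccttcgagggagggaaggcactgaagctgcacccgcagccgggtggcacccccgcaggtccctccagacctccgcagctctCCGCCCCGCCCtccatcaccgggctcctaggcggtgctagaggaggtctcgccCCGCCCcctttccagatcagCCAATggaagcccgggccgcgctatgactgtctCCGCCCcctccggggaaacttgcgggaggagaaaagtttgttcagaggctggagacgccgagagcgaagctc
Ptges2: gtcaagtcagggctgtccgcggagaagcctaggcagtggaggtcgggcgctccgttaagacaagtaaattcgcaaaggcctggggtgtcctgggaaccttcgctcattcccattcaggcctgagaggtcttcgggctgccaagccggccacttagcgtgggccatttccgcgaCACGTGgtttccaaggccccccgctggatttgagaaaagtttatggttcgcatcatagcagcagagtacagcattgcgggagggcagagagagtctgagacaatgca
Ptges3: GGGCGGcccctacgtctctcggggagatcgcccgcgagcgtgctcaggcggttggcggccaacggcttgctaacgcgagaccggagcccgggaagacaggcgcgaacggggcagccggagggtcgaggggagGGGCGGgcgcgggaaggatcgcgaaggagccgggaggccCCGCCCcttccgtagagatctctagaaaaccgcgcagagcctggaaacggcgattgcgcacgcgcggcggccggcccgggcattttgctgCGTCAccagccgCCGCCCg
Ptger4 held 4 GC boxes and a CCAAT motif, Ptges2 an E-box at 77 to 72 bases before the start, and Ptges3 4 GC boxes and a short CRE at bases 12 to 16 after the start. These windows had 22, 16 and 42 CG dinucleotides, against 16 at Ptgs2 and a median of 6 over the 32851 windows.

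The other 7 prostaglandin genes had no peak within 2000 bp of an end. The nearest peak lay 21.93 kb from an end of Ptges, 42.53 kb from Ptger1, 75.98 kb from Ptgds, 215.16 kb from Ptger2, 285.05 kb from Ptgs2, 385.76 kb from Ptger3 and 1099.78 kb from Ptgs1. In the wider pathway 6 of the 45 genes with a position had a peak near an end, and 5 of the 27 that were also tested, to be read against the 26.0% of all tested genes. Among the 6, Mgll carried the one of highest score, 26.4 (rank 44 of 4677, 2086 bp), from 530 bases before its start to 1555 bases past it.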

How the data were processed

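The authors deposited unnormalised read counts for each Ensembl gene, in 1 table a library. The submitters' processing notes list build mm10 and the tools HTSeq 0.6.1, Bowtie2 2.2.4, TopHat2 2.0.9 and CASAVA 1.8 without roles. Not given in the sources used here were annotation release and strand setting. The 5 summary lines (19.9% to 26.8% of alignments outside genes, 15.2% to 20.5% not unique) were left out. Groups and replicate numbers came from sample titles. PTX and CTRL were compared over all genes with edgeR 4.0.16 in R 4.3.3 (quasi-likelihood, TMM, filterByExpr, group only, Benjamini-Hochberg). CPM uses TMM-scaled library sizes, and the SE is the log2 fold change over the root of F. Intervals are at 95%. The fit was tested on simulated data. Alternatives were DESeq2 1.42.0, its size factors in edgeR, no filter, the replicate block, each library left out, and both libraries numbered 1 left out.

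Same-numbered libraries deviated together for numbers 1, 2 and 4 (correlations of deviations from group means 0.77, 0.57 and 0.61) and less for number 3 (0.15). They are called pairs here, but the main test takes no account of pairing. The fit with the replicate block does. Its edgeR adjusted p was 0.0024 for Ptgds, 0.00139 for Ptger3 and 0.00921 for Ptges3. The labels do not say what a number marks. The series' text calls the replicates biological, without naming animals, so p-values measure the spread between these cultures. Libraries of a group differed by a chi-square of at least 9.45 per degree of freedom, so none was a copy of another.

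Peaks carry a score deposited by the authors, and its meaning, caller and threshold are unknown here. Peaks were set against RefSeq gene ends (GRCm38.p6, at least 1 bp overlap with 2000 bp on each side). Windows with motifs came from RefSeq. Motifs were searched on both strands.

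The members, the gene lists, the markers and the rule for named genes (all members, the 3 smallest p and up to 5 called genes of each list, the 3 genes most like Ptgs2 and Ptgds) were chosen with earlier results of these data known. Tbxas1, Pla2g6, Abhd12, Alox5 and the untested receptors of other prostanoids were named after their values were seen. Some items are not reported here.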

Additional observations from a re-analysis of the deposited data

Results flagged for a closer look

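In the CTRL group, Tbxas1 stood at 1.59 CPM in replicate 1, far from the nearest other CTRL library at 8.84 CPM. Aloxe3 stood at 3.31 CPM in CTRL replicate 2, against 2.42 CPM in the nearest. These 2 were found among 58 groups of 4 libraries examined, and chance flags about 1 in 20. The CTRL library numbered 1 also had the lowest microglia marker sum of all libraries.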

How the results depend on the processing

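The rises of Ptgs2, Pla2g4a, Pla2g5, Daglb, Hpgds, Ptgfr and Aloxe3 and the falls of Mgll, Faah, Abhd6, Dagla and Fam213b kept their direction and side of the threshold in all 13 alternatives. The number of prostaglandin genes that fell, 2 with all libraries, was 0 to 1 when any 1 library was left out and 1 without both libraries numbered 1. The number of other pathway genes that fell, 8 with all libraries, was 5 to 7 when any 1 library was left out. The smaller number of samples is part of those settings. Of genes that did not pass the test, Ptges turned to a log2 fold change of 0.0223 with DESeq2 and 0.0216 with its size factors in edgeR, and ranged from -0.20 to 0.22 with 1 library left out. The corresponding ranges were -0.33 to 0.0259 for Ptger1, -0.31 to 0.60 for Ptgs1, -0.0844 to 0.97 for Tbxas1 and -0.30 to 0.98 for Alox5ap. For these the cause was not tested. With the replicate block 3 prostaglandin genes rose and 2 fell, and of the prostaglandin and pathway genes only Pla2g6 changed its call. Markers that changed theirs are given beside the genes they were set against. The number of prostaglandin genes with a peak was 3 with windows of 500 or 5000 bp or with peak centres, and 2 with peaks at or above the median score. Depth limits Ptger4 in CTRL, Ptger2 and the other prostanoid receptors.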
